A study of Mus musculus with 50 samples.

Results

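The libraries compared here hold ribosome-bound RNA precipitated to enrich that of D1-MSNs. They came from mice that were susceptible (Sus) or resilient (Res) after chronic social defeat. The libraries were chosen by their labels and number 9 of the 50 samples of the series, 5 D1 Sus and 4 D1 Res immunoprecipitates (IPs). All mice carried RiboTag, a ribosomal protein (Rpl22) that gains an HA tag in cells with Cre recombinase, and the D1-Cre transgene, on a C57BL/6 background, and they were 8 to 12 weeks old. Res and Sus mice had been defeated daily by a larger aggressor for up to 10 days and were divided by a social interaction test 24 h after the last defeat. Sus mice stayed away from an unfamiliar mouse in that test and Res mice approached it. Each library came from 6 punches of nucleus accumbens (NAc) tissue per mouse of 2 pooled mice of one outcome, and HA-tagged ribosomes were precipitated from the homogenate. Both groups were thus defeated, and no library of the comparison came from an undefeated mouse. The 4 D1 Con libraries of undefeated mice of the same genotype, the 10 D2-IP libraries of Sus and Res mice with D2-Cre in place of D1-Cre, and the 3 Res and 3 Sus inputs of the D1 line (RNA before precipitation) are described where they bear on a result. D1-Cre is a bacterial artificial chromosome transgene that is active wherever its Drd1 regulatory sequence is, so that the tag marks cells by Cre and not by their place in the NAc. Defeats ran in several batches, which the labels do not assign to libraries.

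The NAc is built mainly of GABAergic medium spiny neurons, which fall into one class with the D1 dopamine receptor, dynorphin and substance P and another with the D2 receptor, enkephalin and the adenosine receptor encoded by Adora2a. Both receive glutamatergic afferents from cortex, hippocampus, thalamus and amygdala, and the strength of these synapses on D1-MSNs depends on AMPA receptors and the proteins that travel with them. Neurons also release peptides, which prohormone convertases cut out of larger precursors in secretory granules, and social defeat is known to alter several of these systems in the NAc.

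The marker genes of the cells fitted the labels in part. *Drd1*, the D1 receptor, lay at 291, 323, 318 and 340 CPM (counts relative to library size, scaled by TMM) in Res 1 to 4 and at 328, 302, 277, 293 and 314 CPM in Sus 1 to 5. The groups overlapped, and the log2 fold change of Sus over Res was -0.07 with a standard error of 0.11. D2-IPs held *Drd1* at 127 ± 23.3 CPM (SD, n = 5) in Res and 126 ± 20.8 CPM (SD, n = 5) in Sus. *Penk*, the enkephalin precursor of D2-MSNs, stood at 2031 ± 161 CPM (SD, n = 4) in D1 Res IPs, below the 5276 ± 78.9 CPM (SD, n = 5) of D2 Res IPs but above the 786 ± 148 CPM (SD, n = 3) of the D1-line Res inputs. Transcripts of D2-MSNs were therefore lower in D1-IPs than in D2-IPs and were not absent from them. Glial and vascular transcripts were lower in the IPs than in the inputs. The 8 microglia markers summed to between 10.3 and 16.8 CPM in the 9 libraries against 253 to 310 CPM in the Res inputs, and the 8 astrocyte markers to between 90.8 and 187 CPM against 1398 to 1541 CPM. Oligodendrocyte markers summed to between 483 and 770 CPM against 3850 to 5958 CPM. Endothelial and mural markers summed to between 14.1 and 18.1 CPM against 228 to 245 CPM. Choroid plexus and ependymal markers were not lower in the IPs, at 11.3 to 17.4 CPM against 9.77 to 16.5 CPM. Nor were cortical and glutamatergic neuron markers, with a mean sum of 699 CPM in Res IPs against 708 CPM in Res inputs. In Sus the means were 890 CPM in IPs and 407 CPM in inputs. Transcripts of such neurons were thus not depleted from the D1-IPs. No list of other cells had a marker at 0 in all 9 libraries except the red blood cell genes, of which 4 of 5 were. Depth ran from 22874477 to 29622460 counts on genes in Res and from 23398742 to 28452699 in Sus, and no pair of libraries within a group was a duplicate. Whether both mates of a read pair add to these counts is not given in the sources used here.

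Some libraries stood apart from others of their own group. Res 1 and Res 4 held less of the 8 cortical and glutamatergic neuron markers than the other Res libraries, and Sus 3 held the most. The summed level of this list was 645, 819, 862 and 470 CPM in Res 1 to 4 and 695, 637, 1383, 902 and 834 CPM in Sus 1 to 5. Of its 8 genes, 7 had a log2 fold change above 0 and none passed an unadjusted p of 0.05, with a median of 0.37. In the inputs of the D1 line the sums were 280, 611 and 1232 CPM in Res and 343, 347 and 529 CPM in Sus, and the groups overlapped. Res 1 also held the most cholinergic interneuron transcripts, 38.6 CPM over 6 markers against 18.7 to 21.6 CPM in the other Res libraries and 11.7 to 25.7 CPM in Sus. Res 1 and Res 4 also held more oligodendrocyte markers, 723 and 708 CPM against 495 and 488 CPM in Res 2 and Res 3. Sus libraries held 483 to 770 CPM of them. Genes that were lowest or highest in the same libraries are pointed out below, though not all of them follow these sums in the other libraries.

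Between susceptible and resilient mice no transcript of the D1-IPs stood out after correction over all genes. No gene passed an adjusted p of 0.05 in edgeR's quasi-likelihood test, and the smallest adjusted p among 14224 genes was 0.999. At an unadjusted p of 0.05, the threshold of the study, 601 genes passed, which is 4.23% of those tested and fewer than the 711.2 that a flat distribution of p would give. DESeq2 gave 584 genes at this threshold and also 0 after adjustment. Of the 601 genes 274 (1.93%) were higher and 327 (2.30%) lower in Sus, a split that went the other way with RLE size factors (307 higher and 268 lower). Only 117 of the 601 genes differed by more than 1.5-fold, 76 of them higher in Sus, and the median standard error over all genes was 0.0995 on the log2 scale. In 285 genes (2.00%) the 5 Sus libraries did not overlap the 4 Res libraries, 101 (0.710%) with Sus above Res and 184 (1.29%) with Sus below. Every gene named below as higher or lower in Sus than in Res is so at an unadjusted p and has an adjusted p of 0.99885 or above in this test. These shares are the background for each count of such genes. In bulk libraries of this kind, fewer cells of a type and less RNA per cell cannot be told apart.

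**Figure D1:**
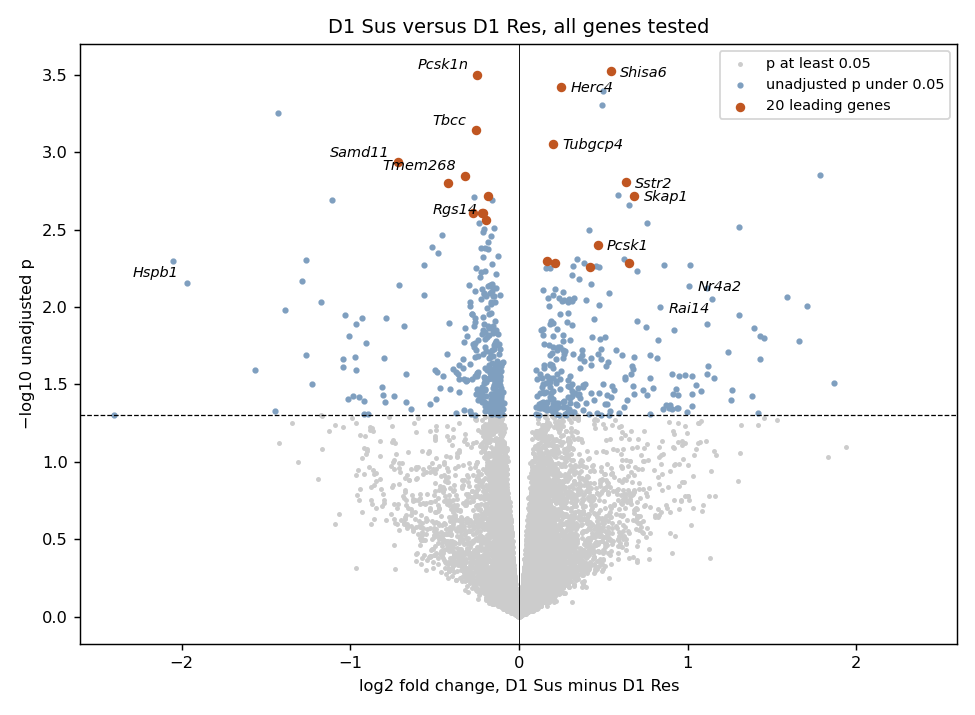
Each point is one of the 14224 genes tested, with its log2 fold change of D1 Sus over D1 Res on the horizontal axis and the −log10 of its unadjusted p on the vertical axis; the dashed line marks the unadjusted threshold of 0.05. The 20 leading genes, in orange, mostly have small fold changes, and *Shisa6* and *Pcsk1n* have the smallest p on either side.

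Among the genes whose libraries did not overlap, the one with the smallest p was *Shisa6*, which encodes an auxiliary protein of AMPA receptors. Its gene lies on chromosome 11 of GRCm38 (66211725 to 66525964, minus strand). It lay at 10.6, 14.1, 12.5 and 9.85 CPM in Res 1 to 4 and at 15.8, 15.7, 20.5, 16.6 and 17.2 CPM in Sus 1 to 5. All 5 Sus libraries were above all 4 Res libraries, by the least between Sus 2 and Res 2. The log2 fold change was 0.55 (standard error 0.13), with the smallest p of all genes tested. D1 Con libraries spread over both groups, from 9.91 to 17.2 CPM, and inputs did not separate, with 17.5 ± 3.31 CPM in Res and 17.0 ± 0.868 CPM in Sus (SD, n = 3 each). *Shisa6* was lowest in Res 4 and Res 1 and highest in Sus 3. The cortical list too was lowest in Res 4 and highest in Sus 3. Res 1 and Res 4 held fewer cortical transcripts than the other Res libraries. Without both, the log2 fold change of *Shisa6* was 0.37 and stayed past the threshold. None of the other 16 AMPA receptor auxiliary subunit genes, and none of the 4 AMPA receptor subunit genes, passed the threshold, with medians of -0.03 over the 17 auxiliary genes and 0.03 over the 4 subunits against 0.00 over all genes.

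A convertase and its inhibitor moved in opposite directions. *Pcsk1* encodes prohormone convertase 1, which cuts peptide precursors in secretory granules, and *Pcsk1n* encodes proSAAS, a granin-like protein from which an inhibitor of that enzyme is made. *Pcsk1* was at 13.6, 12.8, 11.05 and 10.8 CPM in Res 1 to 4 and at 17.6, 17.2, 13.9, 17.4 and 17.3 CPM in Sus 1 to 5. Sus 1, Sus 2, Sus 4 and Sus 5 lay close together, and Sus 3 lay just above the highest Res library. The log2 fold change was 0.47 (standard error 0.15). *Pcsk1n* was at 324, 276, 260 and 284 CPM in Res and at 244, 240, 239, 241 and 241 CPM in Sus. The Sus libraries were nearly equal and all below Res, while the Res libraries differed among themselves. Its log2 fold change was -0.25 (standard error 0.06). Both calls held in each fit that left out 1 library, and without both Res 1 and Res 4 (0.48 for *Pcsk1* and -0.15 for *Pcsk1n*). Of the 16 genes for peptide processing and granins these were the only ones to pass, and none of the 23 peptide precursor genes did. The precursor list spread evenly, with 12 genes above 0 and 11 below and a median log2 fold change of 0.01. Exons of *Eras* overlap *Pcsk1n* on the opposite strand.

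*Sstr2* encodes a receptor for somatostatin, the peptide of a class of striatal interneurons. It was at 11.9, 18.2, 19.4 and 8.95 CPM in Res 1 to 4 and at 21.3, 19.6, 25.8, 21.8 and 25.0 CPM in Sus 1 to 5. The groups did not overlap, but Res 2 and Res 3 came close to Sus 2. The log2 fold change was 0.63 (standard error 0.18), and it was 0.27 and no longer past the threshold without Res 1 and Res 4.

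The sequences in front of *Pcsk1*, *Sstr2* and *Nr4a2*, 3 genes higher in Sus that are known to respond to cAMP signalling, and of *Pcsk1n*, which was lower, are shown because D1 receptors act through cAMP. They run from 250 to 51 bases before the RefSeq start of each gene (GRCm38.p6), 5′ to 3′ on the gene's strand. Capitals mark the palindromic cAMP response element TGACGTCA and its half-site TGACG, which is part of the full element, on either strand.
Pcsk1 (chr13:75089607-75089806, plus): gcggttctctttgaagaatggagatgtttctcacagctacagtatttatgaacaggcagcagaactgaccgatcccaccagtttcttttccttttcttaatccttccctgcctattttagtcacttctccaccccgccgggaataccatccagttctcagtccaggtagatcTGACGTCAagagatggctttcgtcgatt
Sstr2 (chr11:113619077-113619276, plus): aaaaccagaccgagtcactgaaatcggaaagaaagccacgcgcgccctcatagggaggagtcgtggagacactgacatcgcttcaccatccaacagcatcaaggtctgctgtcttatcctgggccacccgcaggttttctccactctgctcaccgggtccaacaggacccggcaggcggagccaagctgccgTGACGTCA
Nr4a2 (chr2:57124054-57124253, minus): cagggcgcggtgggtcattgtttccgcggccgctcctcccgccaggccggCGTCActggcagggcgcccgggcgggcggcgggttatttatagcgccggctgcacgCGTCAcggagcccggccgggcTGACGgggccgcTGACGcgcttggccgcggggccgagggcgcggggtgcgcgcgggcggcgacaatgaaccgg
Pcsk1n (chrX:7919572-7919771, plus): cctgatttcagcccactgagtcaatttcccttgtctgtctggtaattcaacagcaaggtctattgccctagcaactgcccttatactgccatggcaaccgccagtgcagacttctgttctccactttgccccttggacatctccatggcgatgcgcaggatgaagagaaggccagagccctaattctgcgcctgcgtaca
*Pcsk1* and *Sstr2* each hold 1 full element in this window, *Nr4a2* holds 4 half-sites and no full element, and *Pcsk1n* holds neither. Of all 32851 windows of this length 0.828% hold the full element and 12.7% the half-site, and of the 14148 windows of genes tested 1.34% and 17.8%. A window was found by symbol for 44 of the 52 genes that the rules for naming gave. The full element was in 3 of the 20 named genes that were higher in Sus and had a window (*Pcsk1*, *Sstr2* and *Pak1*), and in 2 of the 23 that were lower (*Emc10* and *Gpr6*). The genes whose sequences are shown were picked with their values known, and *Emc10* and *Gpr6*, which were lower and hold the full element, are not among them. A match is a description of the letters and not of binding. Whether cAMP had a part in these differences was not tested.

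The other leading genes that were higher in Sus were of several kinds. *Herc4*, a HECT ubiquitin ligase, lay between 28.8 and 33.7 CPM in Res and between 35.3 and 40.6 CPM in Sus (log2 fold change 0.25, standard error 0.06). *Tubgcp4*, a part of the γ-tubulin ring complex that nucleates microtubules, lay between 22.6 and 25.5 CPM in Res and between 26.5 and 29.0 CPM in Sus (0.20, standard error 0.05). *Taf1*, the largest subunit of the general transcription factor TFIID, was nearly the same in the 4 Res libraries (102 to 104 CPM) and ran from 108 to 122 CPM in Sus (0.17, standard error 0.05). *Cntn2*, an axonal adhesion protein, ran from 110 to 128 CPM in Res and from 130 to 148 CPM in Sus (0.22, standard error 0.07). *Skap1*, *Hnrnpa1* and *Thbs3* were low genes, at mean levels between 1.66 and 4.58 CPM in Res, with log2 fold changes of 0.68, 0.65 and 0.42. *Hnrnpa1* has near-identical copies elsewhere in the genome, so that its counts are uncertain.

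The 10 other leading genes were lower in Sus, by between -0.18 and -0.71 on the log2 scale. *Tbcc*, a cofactor that folds tubulin, was at 23.5, 24.2, 25.9 and 24.9 CPM in Res 1 to 4 and at 21.7, 18.6, 22.3, 21.4 and 19.2 CPM in Sus 1 to 5 (-0.26, standard error 0.07). *Emc10*, a part of the complex that inserts membrane proteins at the endoplasmic reticulum, was tight in both groups, from 183 to 191 CPM in Res and from 154 to 174 CPM in Sus (-0.18, standard error 0.05). *Rgs14*, which shortens G protein signals, was at 140 to 144 CPM in Res and 117 to 137 CPM in Sus (-0.19, standard error 0.06). *Rbck1*, a part of the linear ubiquitin ligase complex, fell from 82.2 to 91.3 CPM in Res to 70.2 to 78.9 CPM in Sus (-0.22, standard error 0.07). *Samd11* was low, from 2.89 to 4.42 CPM in Res and from 1.70 to 2.83 CPM in Sus (-0.71, standard error 0.20). *Tmem268*, *Tmem81*, *Zfp212* and *H2-Ke6* had log2 fold changes of -0.32, -0.42, -0.21 and -0.27. Exons of another gene on the opposite strand overlap *Herc4*, *Tubgcp4*, *Skap1*, *Thbs3* and *Samd11*, and *H2-Ke6* overlaps a predicted gene on its own strand. All 20 leading genes stayed past the threshold in each fit that left out 1 library, and 19 of them, all but *Sstr2*, did so without both Res 1 and Res 4.

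**Figure D2:**
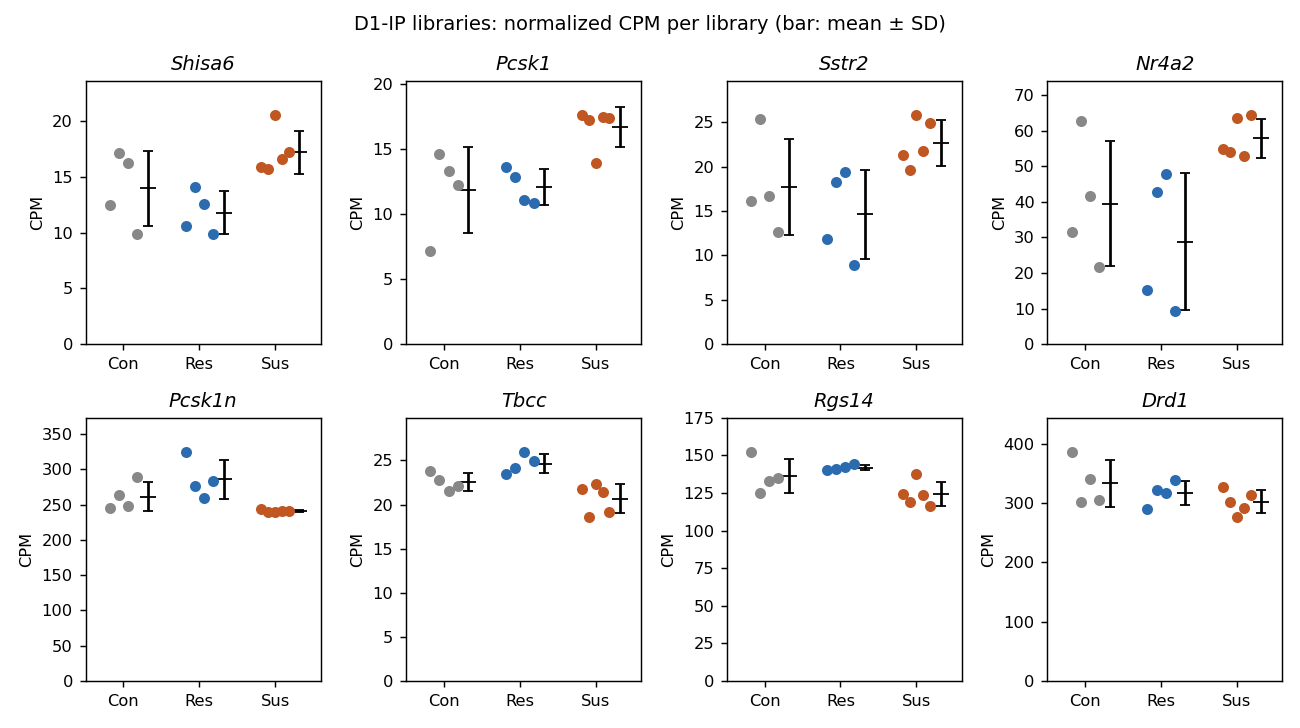
Normalized CPM of 8 genes in each D1-IP library of Con (grey, n = 4), Res (blue, n = 4) and Sus (orange, n = 5) mice, with the mean ± SD beside the points. Sus and Res points do not overlap for *Shisa6*, *Pcsk1*, *Sstr2*, *Nr4a2*, *Pcsk1n*, *Tbcc* and *Rgs14*, and overlap for *Drd1*; in *Nr4a2* and *Sstr2* a pair of Res libraries lies near Sus and the other pair far below.

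Genes outside the rule for naming, chosen after their values were seen, included 2 forms of the kinase AKT, which acts downstream of growth factor and dopamine receptors. *Akt1* lay between 147 and 161 CPM in Res and between 136 and 140 CPM in Sus (-0.15, standard error 0.04). *Akt2* lay between 93.9 and 102 CPM in Res and between 81.8 and 86.5 CPM in Sus (-0.21, standard error 0.06). In both genes all Sus libraries were below all Res libraries. *Lxn*, a carboxypeptidase inhibitor, and *Cpne4*, a copine, were also among the genes of smallest p, with log2 fold changes of 0.50 and 0.49 (standard error 0.12 and 0.13), but their groups overlapped. Without Res 1 and Res 4 *Lxn* (0.24), *Cpne4* (0.21) and *Akt1* (-0.12) lost the call.

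The gene lists, 40 in all with 866 genes tested, gave 36 genes at an unadjusted p under 0.05, or 4.16%, close to the 4.23% of all genes. Of these 17 were higher and 19 lower in Sus. In 18 lists no gene passed. Among the list genes named below, *Rgs8*, *Kcnh3*, *Kcnj9*, *Htr1b*, *Ptprd*, *Rai14* and *Rps2* overlap exons of another gene on the opposite strand. Of the list genes past the threshold that are named below and are not among the 20 leading genes, *Drd2*, *Gpr6*, *Cacna1b*, *Kcnb2*, *Kcna5* and *Psmd11* stayed past the threshold without both Res 1 and Res 4, and the others did not.

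Genes that mark MSNs lay slightly lower in Sus. All 14 MSN identity genes had a log2 fold change below 0, with a median of -0.09, all 8 D2-MSN markers did, with a median of -0.17, and 7 of 8 D1-MSN markers did, with a median of -0.07, against 49.4% of all genes. Of these, only *Drd2*, *Gpr6* and *Gng7* passed the threshold. The summed level of each list overlapped between the groups, with MSN identity genes at 10982 to 12775 CPM in Res and 9519 to 11989 CPM in Sus. The genes were measured in the same libraries, so their shared sign is a description. *Drd2*, the D2 dopamine receptor, was at 91.1, 104, 98.2 and 99.2 CPM in Res 1 to 4 and at 88.2, 86.8, 76.4, 78.8 and 96.6 CPM in Sus 1 to 5 (-0.20, standard error 0.09). *Gpr6*, an orphan receptor of D2-MSNs, ran from 42.2 to 56.1 CPM in Res and from 35.8 to 46.2 CPM in Sus (-0.25, standard error 0.11). *Gng7*, the γ subunit of the striatal G protein that links dopamine receptors to adenylyl cyclase, ran from 845 to 1020 CPM in Res and from 673 to 900 CPM in Sus (-0.20, standard error 0.08). In all 3 genes the groups overlapped, and Sus 3 or Sus 4 was the lowest library. The calls were lost in fits that left out 1 library, given here with the log2 fold change nearest 0 among those fits: for *Drd2* Res 2, Sus 3 or Sus 4 (nearest 0 at -0.17), for *Gpr6* Res 2, Res 3 or Sus 4 (nearest 0 at -0.18) and for *Gng7* Res 4 or Sus 3 (nearest 0 at -0.14). Sus 3, with the most cortical transcripts, held the least of these lists, with 9519 CPM of MSN identity genes against 10493 to 11989 CPM in the other Sus libraries. The part of the cortical transcripts in this difference was not tested.

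Genes of dopamine and cAMP signalling, a list that shares genes such as *Gng7* with the MSN lists, lay lower as well. Their summed levels overlapped, at 15338 to 17156 CPM in Res and 14284 to 16221 CPM in Sus. Of 29 genes 23 were below 0 (median -0.06), against 49.4% of all genes, and 3 passed, all lower: *Rgs14*, *Gng7* and *Rgs8*. *Rgs8*, which also shortens G protein signals, lay between 303 and 356 CPM in Res and between 248 and 306 CPM in Sus (-0.17, standard error 0.06), and lost the call without Res 4 or Sus 3 or without both Res 1 and Res 4 (nearest 0 at -0.11).

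Among postsynaptic density scaffolds, 2 of 20 genes passed, both lower. *Dlgap3*, a scaffold that binds SHANK proteins at striatal synapses, was at 406, 395, 348 and 404 CPM in Res and at 347, 338, 348, 339 and 338 CPM in Sus (-0.18, standard error 0.06), with Res 3 just above the highest Sus library, and lost the call without both Res 1 and Res 4 (-0.12). *Dlg4*, the main scaffold of excitatory synapses, was at 928, 976, 889 and 927 CPM in Res and at 833, 832, 844, 840 and 944 CPM in Sus. Sus 5 overlapped Res, and its call (-0.12, standard error 0.05) was lost in 7 of the 9 fits that left out 1 library, all but those without Res 3 and without Sus 5, and with RLE size factors and DESeq2. None of the 13 NMDA and kainate, 7 metabotropic glutamate or 14 GABA-A receptor genes tested passed, and their medians were 0.01, 0.01 and 0.00.

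Ion channels gave few differences. Of 23 sodium and calcium channel genes *Cacna1b*, the N-type calcium channel of presynaptic terminals, passed with 146 to 156 CPM in Res and 157 to 165 CPM in Sus (0.11, standard error 0.05), and not without Res 3 or Sus 1 (nearest 0 at 0.10). Of 72 potassium channel genes 2 were higher and 3 lower. *Kcnb2*, a delayed rectifier, ran from 7.23 to 9.85 CPM in Res and from 8.42 to 13.8 CPM in Sus (0.38, standard error 0.15). *Kcnj9*, a channel opened by G proteins, ran from 53.3 to 72.8 CPM in Res and from 64.5 to 95.7 CPM in Sus (0.24, standard error 0.11). *Kcna5* and *Kcnh3* were lower (both -0.17, standard error 0.07 and 0.07). Each of these 4 potassium channel calls was lost in 3 or 4 of the 9 fits that left out 1 library (nearest 0 at 0.28 for *Kcnb2*, 0.15 for *Kcnj9*, -0.12 for *Kcna5* and -0.14 for *Kcnh3*). The libraries were Res 1, Res 3 or Sus 5 for *Kcnb2*, Res 4, Sus 3 or Sus 4 for *Kcnj9*, Res 3, Sus 3 or Sus 4 for *Kcna5*, and Res 1, Res 4, Sus 4 or Sus 5 for *Kcnh3*. *Kcnj9* was lowest in Res 4 and highest in Sus 3, had a log2 fold change of 0.12 without both Res 1 and Res 4, and lost the call in a fit of the 13 D1-IPs alone.

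Of 26 receptors for serotonin, opioids, cannabinoids, acetylcholine and other modulators, *Chrm3* was higher and *Htr1b* lower. *Chrm3*, a muscarinic receptor, was at 22.3, 27.3, 24.2 and 18.8 CPM in Res 1 to 4 and at 27.6, 24.9, 35.7, 30.8 and 31.8 CPM in Sus 1 to 5. Only Sus 2 fell within the Res range, and the log2 fold change was 0.38 (standard error 0.13). Its order over the libraries was that of the cortical list at both ends, lowest in Res 4 and highest in Sus 3, and the call was lost without Res 1 and Res 4 together (0.23). *Htr1b*, an inhibitory serotonin receptor of MSN terminals, ran from 16.8 to 24.0 CPM in Res and from 15.1 to 19.8 CPM in Sus (-0.25, standard error 0.11), and lost the call without Res 1, Res 4, Sus 2, Sus 3 or Sus 4 (nearest 0 at -0.14) and without both Res 1 and Res 4 (-0.10).

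Genes for contact and growth of neurites gave 3 calls. Of 33 synaptic adhesion genes *Ptprd*, a receptor phosphatase that organizes presynaptic terminals, passed with 126 to 135 CPM in Res and 143 to 164 CPM in Sus (0.19, standard error 0.09). Of 45 axon guidance genes *Nrp2*, a semaphorin receptor, passed with 64.6 to 78.7 CPM in Res and 75.3 to 94.5 CPM in Sus (0.26, standard error 0.11), and of 65 protocadherins *Pcdhb5* passed, lower in Sus (-0.20, standard error 0.10). *Ptprd* lost the call without Res 2, Res 4 or Sus 3 (nearest 0 at 0.16), *Nrp2* without Res 3 (0.21), and *Pcdhb5* without Res 3, Res 4, Sus 1, Sus 3 or Sus 5 (nearest 0 at -0.16) and with RLE size factors, DESeq2 and fits of fewer libraries.

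Of 27 actin and spine genes 3 passed. *Rai14*, an actin-binding protein of dendritic spines, was at 3.83, 4.84, 4.21 and 2.53 CPM in Res 1 to 4 and at 6.22, 6.09, 8.30, 7.18 and 6.47 CPM in Sus 1 to 5. All Sus libraries were above all Res libraries (0.83, standard error 0.30). *Ppp1r9b*, which encodes spinophilin, was lower, from 1108 to 1215 CPM in Res and from 1020 to 1103 CPM in Sus (-0.13, standard error 0.06), and *Pak1*, a kinase that acts on actin, was higher (0.17, standard error 0.08). *Rai14* was past the threshold without any single library and not without both Res 1 and Res 4 (0.60). *Ppp1r9b* lost the call without Res 2, Res 4, Sus 3 or Sus 4 (nearest 0 at -0.11) and *Pak1* without Res 1, Res 4, Sus 3 or Sus 5 (nearest 0 at 0.09) and in fits of the 9 libraries or the 13 D1-IPs alone. *Pak1* was lowest in Res 4 (254 CPM) and highest in Sus 3 (391 CPM), as the cortical list was, and its log2 fold change was 0.03 without both Res 1 and Res 4.

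Of 34 synaptic vesicle genes *Rims1* and *Unc13b*, which prepare vesicles for release at the active zone, passed, both higher (0.23, standard error 0.11, and 0.32, standard error 0.14). *Unc13b* lost the call without Res 1, Res 4 or Sus 3 (nearest 0 at 0.24) and without both Res 1 and Res 4 (0.18), and it too was lowest in Res 4 and highest in Sus 3. *Rims1* kept it in only 2 of the 9 fits that left out 1 library, those without Sus 1 and Sus 2 (nearest 0 at 0.19).

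**Figure D3:**
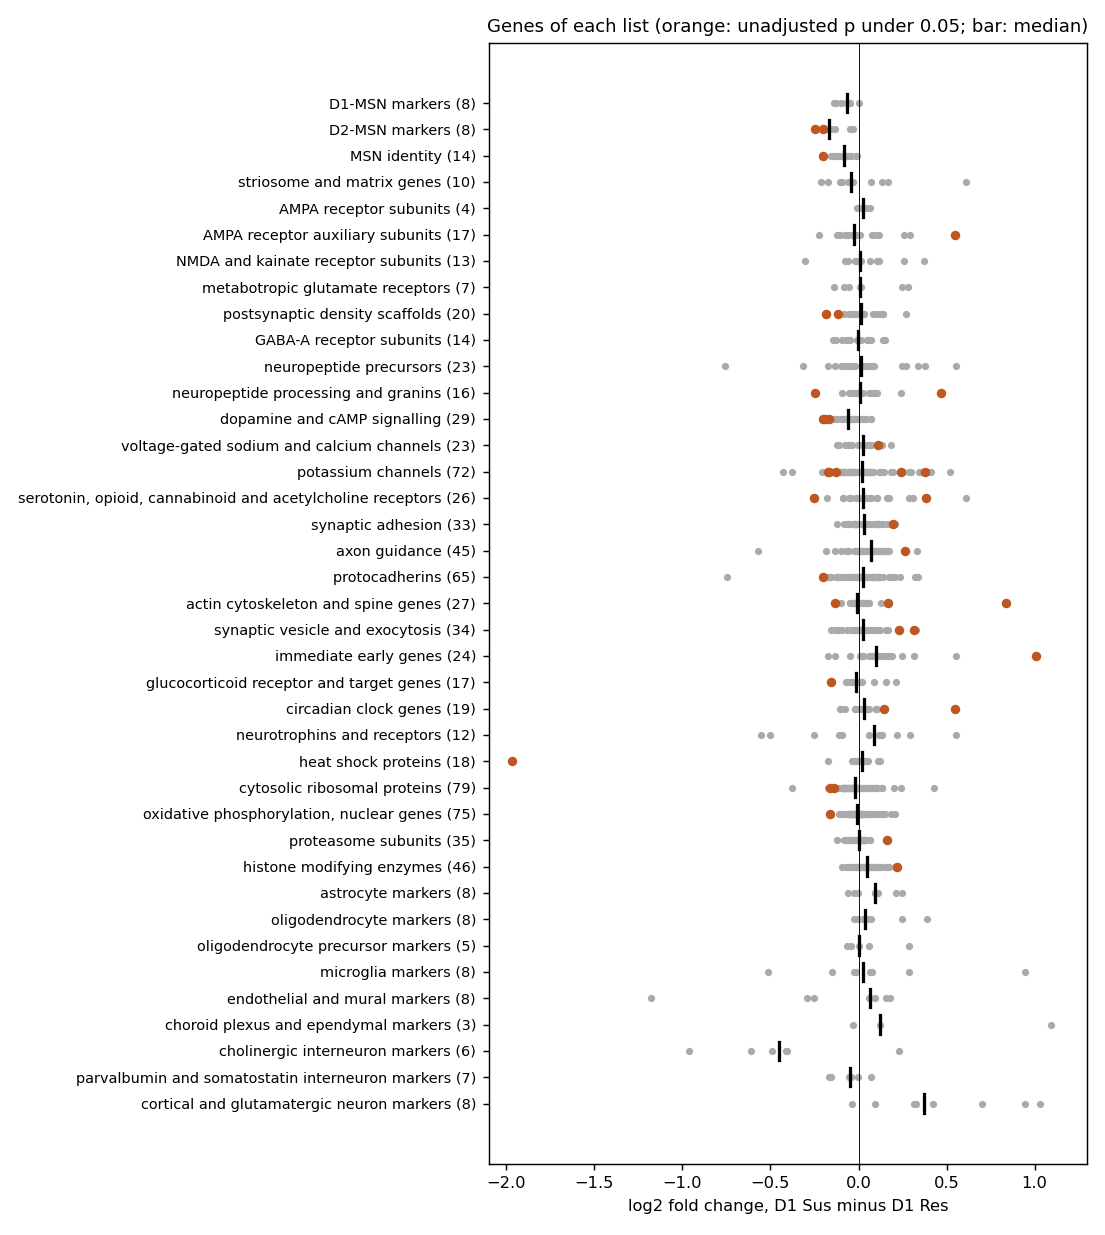
Log2 fold change of D1 Sus over D1 Res for every tested gene of each list with at least 3 tested genes (number tested in parentheses); orange points have an unadjusted p under 0.05 and black bars are medians. The medians farthest from 0 are those of the cholinergic list (-0.45), the cortical and glutamatergic list (0.37) and the D2-MSN markers (-0.17).

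Genes that respond to activity, stress and time of day gave single differences. Of 24 immediate early genes 21 had a log2 fold change above 0 (median 0.10), against 50.6% of all genes, and only *Nr4a2* passed. The median of this list was 0.07 in D2-IPs. Its summed levels in D1-IPs overlapped, at 1329 to 1532 CPM in Res and 1289 to 1735 CPM in Sus. *Nr4a2* (Nurr1), an orphan nuclear receptor induced by activity, was at 15.3, 42.7, 47.9 and 9.35 CPM in Res 1 to 4 and at 54.8, 54.0, 63.4, 52.9 and 64.3 CPM in Sus 1 to 5. Sus was tight and above all of Res, whereas Res split into a higher pair, Res 2 and Res 3, and a lower pair. The log2 fold change was 1.01 (standard error 0.35), but 0.35 without Res 1 and Res 4, where the call was lost. In D1 Con it ran from 21.7 to 62.8 CPM. Of 17 genes of the glucocorticoid receptor and its targets *Sgk1* passed, lower in Sus, with 61.8 to 68.7 CPM in Res and 53.9 to 62.2 CPM in Sus (-0.16, standard error 0.06, and -0.12 without Sus 4, where the call was lost), while *Fkbp5* and *Tsc22d3* did not. Of 19 clock genes *Per2* (0.14, standard error 0.06) and *Rorb* (0.55, standard error 0.25) were higher. *Rorb*, which is also a gene of cortical layer IV, ran from 8.35 to 20.9 CPM in Res and from 17.0 to 31.1 CPM in Sus, again lowest in Res 4 and highest in Sus 3. *Per2* lost the call without Res 1, Sus 4 or Sus 5 (nearest 0 at 0.10) and *Rorb* without Res 1, Res 4, Sus 3 or Sus 4 (nearest 0 at 0.34), without both Res 1 and Res 4 (0.21) and with DESeq2. Fits of the 9 libraries or the 13 D1-IPs alone lost *Per2*, and the fit of the 13 D1-IPs lost *Rorb*. None of the 12 neurotrophin genes passed.

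Of the heat shock genes only *Hspb1* passed, at counts too low to describe a level, at most 9 counts per Res library and 3 per Sus library. Genes of protein synthesis, respiration, protein breakdown and chromatin gave 5 calls. *Rplp0* (-0.14, standard error 0.06) and *Rps2* (-0.16, standard error 0.08) were the only 2 of 79 ribosomal protein genes to pass, and both belong to families with many processed copies. Of the 79 genes 51 were below 0 (median -0.02), against 49.4% of all genes. In 5 of them all Sus libraries lay below all Res libraries, as in 1.29% of all genes. Summed levels overlapped, at 6258 to 6881 CPM in Res and 6100 to 6732 CPM in Sus. *Ndufs7* was the only 1 of 75 respiratory chain genes (-0.16, standard error 0.08), *Psmd11* the only 1 of 35 proteasome genes (0.16, standard error 0.05) and *Tet1*, which oxidizes methylated cytosine, the only 1 of 46 chromatin genes (0.22, standard error 0.10). Of the 46 chromatin genes 35 were above 0 (median 0.05), against 50.6% of all genes, and their median was also 0.05 in D2-IPs. *Psmd11* lay between 57.4 and 61.9 CPM in Res and between 62.9 and 69.6 CPM in Sus and held without any single library. The other 4 calls were lost in 4 to 7 of the 9 fits that left out 1 library: *Rplp0* without Res 1, Res 3, Sus 2 or Sus 5 (nearest 0 at -0.11), *Rps2* without Res 1, Res 2, Res 3, Sus 2 or Sus 5 (nearest 0 at -0.11) and with RLE size factors and DESeq2, *Ndufs7* in every fit but those without Sus 1 and Sus 4 (nearest 0 at -0.13), and *Tet1* without Res 1, Res 3, Sus 3, Sus 4 or Sus 5 (nearest 0 at 0.17).

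Res 1 and Res 4 recurred as the libraries farthest from Sus, chiefly among genes higher in Sus. In 79 of the 274 genes higher in Sus (28.8%) these were the lowest 2 of the 9 libraries, against 3.20% of all genes tested and against 10.9% to 13.9% for each of the other 5 pairs of Res libraries. In the 327 genes lower in Sus the same pair was the highest in 65 (19.9%), against 3.26% of all genes tested and against 7.95% to 18.3% for the other pairs. Called genes were selected for a difference from Res, so every Res pair exceeds its share over all genes by that choice. Only the comparison with the other Res pairs bears on this pair. Genes with Res 1 and Res 4 lowest included *Shisa6*, *Herc4*, *Nr4a2*, *Sstr2* and *Cpne4*. Others, chosen after their values were seen, were *Dkk3*, a secreted Wnt modulator, and *Satb1*, a chromatin organizer. *Dkk3* was at 26.4, 50.99, 48.5 and 17.1 CPM in Res 1 to 4 and at 51.4, 47.0, 90.8, 62.5 and 64.6 CPM in Sus 1 to 5 (0.82, standard error 0.32). *Dkk3* lost the call without Res 1 (0.71), Res 4 (0.59) or Sus 3 (0.66), and *Satb1* without Res 4 (0.34). *Slc17a7*, the vesicular glutamate transporter of cortical neurons, was at 515, 644, 687 and 374 CPM in Res and at 540, 487, 1082, 713 and 653 CPM in Sus (0.32, standard error 0.49), and D2-IPs held less of it, 120 ± 72.8 CPM in Res and 145 ± 85.5 CPM in Sus (SD, n = 5 each). Without Res 1 and Res 4, 499 genes passed the unadjusted threshold, 307 higher and 192 lower, over the 14528 genes that this fit tested. Among the 14224 genes tested with all libraries the numbers were 300 higher and 183 lower, of which 99 and 100 had been called in the same direction with all libraries. Within Res, *Nr4a2* rose in the order of the cortical sums, from 9.35 CPM in Res 4 to 47.9 CPM in Res 3. Across the groups it was at 15.3 CPM in Res 1 and 54.0 CPM in Sus 2, libraries with cortical sums of 645 and 637 CPM. The part of cortical or glial transcripts in the differences above was not tested.

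**Figure D4:**
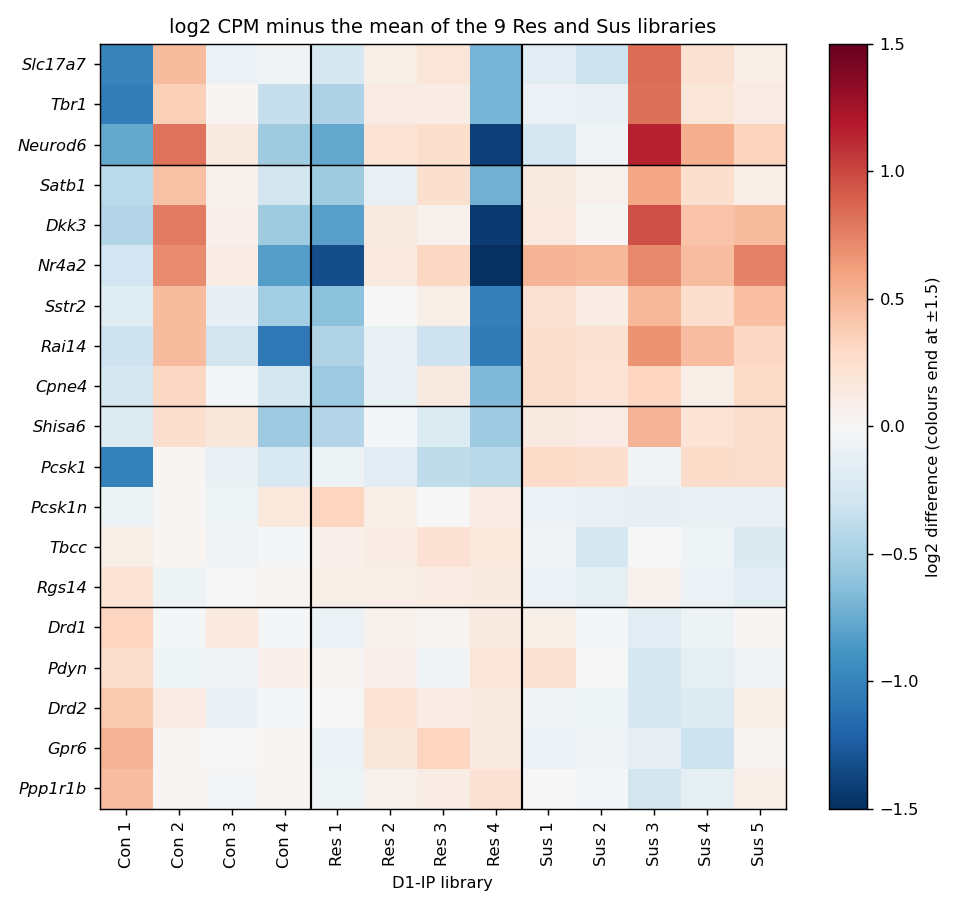
Log2 CPM of 19 genes in each D1-IP library, minus the gene's mean over the 9 Res and Sus libraries; red is higher and blue lower, and lines part Con, Res and Sus. From top to bottom the blocks are cortical markers, genes lowest in Res 1 and Res 4, other leading genes, and MSN markers. *Shisa6*, in the block of other leading genes, was lowest in Res 1 and Res 4 too. In the upper 2 blocks Res 1 and Res 4 are mostly blue and Sus 3 is red.

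The comparison was also made in D2-IPs, and the difference between both comparisons was tested as an interaction. No gene passed an adjusted p of 0.05 (the smallest was 0.99975), and 289 genes (2.03%) passed an unadjusted p of 0.05, with 282 in DESeq2. Of the 20 leading genes of the D1-IPs 13 had the same sign in D2-IPs, and only *Samd11* passed an unadjusted p there (-0.48, standard error 0.19). For 11 of the 20 the interaction had an unadjusted p under 0.05, which is a description, since these genes were chosen for their difference in D1. *Shisa6* was at 9.82 ± 0.982 CPM in D2 Res and 9.42 ± 1.09 CPM in D2 Sus (SD, n = 5 each), and its interaction was 0.60 (standard error 0.18). *Pcsk1n* was at 241 ± 14.7 CPM in D2 Res and 236 ± 13.4 CPM in D2 Sus, with an interaction of -0.21 (standard error 0.08). For *Pcsk1* the interaction was 0.42 (standard error 0.21), for *Sstr2* 0.64 (standard error 0.26) and for *Nr4a2* 1.09 (standard error 0.50). Of these 5 genes only *Pcsk1* missed the unadjusted threshold, and none passed after adjustment.

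**Figure D5:**
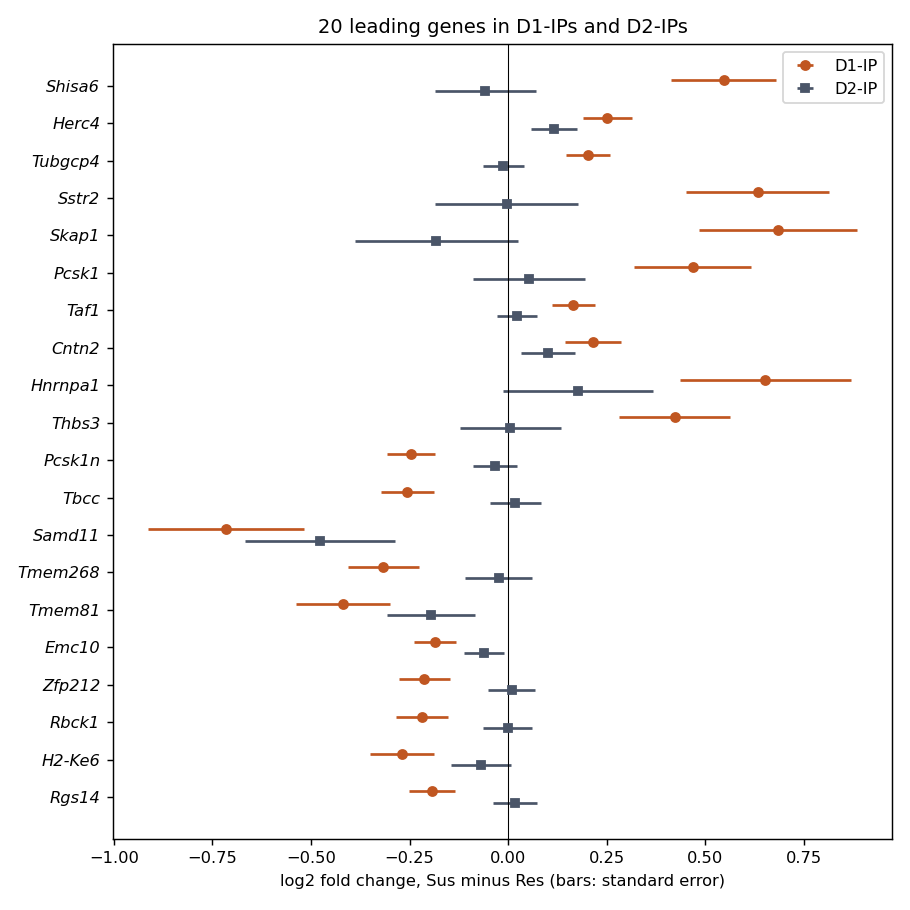
Log2 fold change of Sus over Res with its standard error for the 20 leading genes, in D1-IPs (orange circles) and D2-IPs (grey squares). D1 values are those the genes were chosen on; D2 values lie nearer to 0 for each gene, and the largest of them is *Samd11* at -0.48.

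Differences from undefeated mice are given side by side. They share the Con libraries with each other and the Res or Sus libraries with the comparison above. For *Pcsk1* the log2 difference was 0.50 for Sus over Con and 0.03 for Res over Con. *Tubgcp4* had 0.21 and 0.01, *Cntn2* 0.28 and 0.06, and *Tmem268* -0.30 and 0.01. *Shisa6* lay on both sides of Con, with 0.30 for Sus and -0.25 for Res, as did *Pcsk1n*, with -0.12 and 0.13, *Nr4a2*, with 0.55 and -0.45, and *Tbcc*, with -0.13 and 0.13. *Hnrnpa1* had -0.12 for Sus and -0.77 for Res. The standard errors of these differences ran from 0.05 to 0.36.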

How the data were processed

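Libraries were poly-A selected, stranded and sequenced in pairs. The authors trimmed reads with cutadapt, aligned them to mm10 with STAR and counted them per gene with HTSeq; versions, annotation and strand setting are not given in the sources used here. The deposited values are raw counts for 24552 genes and 5 entries that name no gene, which held 18.0% to 24.5% of reads in the 9 libraries and were left out. The table's 2 columns without a sample record (D1 Con 5, D1 Res 5) and the Sirt1-KO table were not used.

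From these counts, CPM was scaled by TMM and groups were compared by the quasi-likelihood test of edgeR (4.0.16, R 4.3.3). Genes were kept by filterByExpr (minimum count 10, minimum total 15). One model with a mean for each of 6 groups held all 28 IPs, and p-values were adjusted by Benjamini-Hochberg. Standard errors follow from the F statistic. Inputs were scaled on their own. The libraries of a group are separate pools of mice, and p-values measure the spread between them.

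The members, gene lists and alternatives were chosen with earlier results of these data known. Named genes are the 10 of smallest unadjusted p per direction whose groups did not overlap (mean of at least 1 CPM, without predicted genes), up to 4 genes past that threshold per list, and *Shisa6*, *Drd1* and *Drd2*; genes past an adjusted p came first, and none did. Others are named as chosen after their values were seen. Alternatives were RLE factors, other count filters, DESeq2 1.42.0, smaller models, a replicate block and left-out libraries. The code was tested on simulated counts. Positions are from GENCODE vM21 (GRCm38), promoters from RefSeq. Figures used matplotlib 3.10.9. One gene among the markers is not reported here.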

Additional observations from a re-analysis of the deposited data

Results flagged for a closer look

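Among 170 groups of 4 or 5 libraries tested for a library far from the others by Dixon's criterion, 12 had one, or 7.06%. Chance alone gives about 1 in 20, but this share cannot be weighed against that rate. Flagged genes such as *Chat*, *Slc5a7*, *Tbr1* and *Bmp7* had been picked with their levels already known. The groups are also not independent, since *Chat* and *Slc5a7* are part of the cholinergic sum, which was flagged too. Res 1 had *Chat* at 6.42 CPM (1.497 to 2.02 CPM in the other Res libraries), *Slc5a7* at 11.6 CPM (2.86 to 4.31 CPM) and a cholinergic list sum of 38.6 CPM, and its sum of striosome and matrix genes was lowest, at 1399 CPM (1549 to 1573 CPM). Sus 3 had the highest *Herc4* (40.6 CPM) and *Tbr1* (136 CPM against 70.7 to 86.6 CPM) and the lowest *Pcsk1* (13.9 CPM against 17.2 to 17.6 CPM). Sus 5 had the highest *Dlg4* (944 CPM) and *Bmp7* (2.63 CPM) and the lowest *Rps2* (125 CPM), Sus 2 the lowest *Zfp212* (12.9 CPM) and Res 3 the highest *Ndufs7* (64.7 CPM).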

How the results depend on the processing

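No gene passed an adjusted p of 0.05 under any of the 18 alternatives. The 601 genes at an unadjusted p became 486 to 829 under them, and 488 to 644 when 1 library was left out. The 289 genes of the interaction became 513 when all genes with at least 1 count were tested, which adds genes to 19716, and 256 to 363 when 1 library was left out. Of the 51 named genes past the threshold, 20 stayed so under every alternative that tested them and none reversed. *Skap1*, among these 20, was tested in 17 of the 18. Most of the 20 are leading genes, picked for small p and groups apart in these same libraries, which favours their staying. When Res 1 and Res 4 were both left out, an alternative chosen after the data were seen, 26 were lost. Leaving out a single library lost 3 to 16. Replicate numbers are shared by the labels of both groups. Same-numbered libraries correlated between -0.12 and 0.19 in their deviations, highest for Res 3 and Sus 3, and 1 of 4 Res libraries correlated best with its own number. The share of counts on the 10 most abundant genes followed the number in part. Among D1-IPs it was smallest in Con 3, Res 3 (3.59%) and Sus 3 (3.77%), but D2-IPs numbered 3 did not stand apart (4.57% to 5.21%). All IPs numbered 5 had 8.31% to 9.09%, and D2 Con 2 had 10.8%. Whether same-numbered libraries were processed together was not tested. With the replicate block the count was 735 in all 28 IPs (416 for the interaction) and 829 in the 9 libraries. *Chat* (-0.41) ran from -0.61 to 0.27 when 1 library was left out and was 0.29 without Res 1 and Res 4, and *Slc5a7* (-0.61) ran from -0.83 to 0.0011, in both cases with the change of sign when Res 1 was left out; the cause was not tested. The median standard error of 0.0995 on the log2 scale limits what can be told apart.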

Other observations

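Some genes of no list also passed the unadjusted threshold. They were chosen after their values were seen. *Igf2*, a growth factor made by the coverings and vessels of the brain more than by neurons, was at 2.55, 0.31, 5.54 and 2.96 CPM in Res 1 to 4 and at 1.00, 1.56, 0.81, 1.57 and 1.03 CPM in Sus 1 to 5 (log2 fold change -1.26, standard error 0.42). Res 2 was the lowest of all 9 libraries and Res 3 the highest, and the call was lost without Res 3 (-0.71). *Bmp7*, a growth factor of the same tissues, ran from 2.10 to 4.45 CPM in Res and from 1.94 to 2.63 CPM in Sus (-0.56, standard error 0.19; -0.35 without Res 3, where the call was lost). *Cbln2*, which encodes a synaptic organizer released by glutamatergic neurons, was higher in Sus (0.58, standard error 0.23; 0.40 without Res 4 or Sus 3, where the call was lost), at 7.03 to 14.7 CPM in Res and 11.6 to 24.5 CPM in Sus, lowest in Res 4 and highest in Sus 3, as the cortical list was.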
